A study of Mus musculus with 27 samples.

Results

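The 39 genes described here encode the glucose and lactate transporters, enzymes and regulators of glycolysis, together with further targets of the hypoxia-inducible factors (HIF) that act in mitophagy, pH regulation, collagen hydroxylation, oxidative protein folding and glycogen synthesis. They were chosen by symbol, all 39 were found among the 40129 genes listed, and all 39 passed the filter of a mean of at least 1 normalized read (27137 genes tested). In oxygen-induced retinopathy (OIR), neonatal mice breathe high oxygen, which closes part of the retinal capillary bed, and the retina becomes hypoxic on return to room air. Retinas of control pups kept in room air (nOIR) and of pups moved from room air to hyperoxia and back (OIR) were sequenced at postnatal day 14 (p14), the phase of hypoxia, and at p17, the phase of retinal neovascularization. All groups were wild-type C57BL/6 pups (C57BL/6J in the study's methods) of both sexes, with 8 OIR mice at p17 and 6 mice in each of the remaining groups. Another control pup (nOIR p14 S4) was left out because of lens RNA. A library held 1 retina or both pooled retinas of a mouse, and mice of a group shared litters that the labels do not tie to mice, so p-values, which take mice as independent, may be too small. The limits of this model are that the pups have no diabetes and that whole retina mixes all its cell types.

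Cells cope with low oxygen largely through HIF, whose alpha subunits are degraded when oxygen is present and are stabilised when it is short. Stabilised HIF binds short DNA letters around ACGTG or GCGTG, called hypoxia response elements, and turns on genes that raise glucose uptake, glycolysis and lactate export and that lower the entry of pyruvate into mitochondria. The retina is known for a high rate of glycolysis even in oxygen, most of it in photoreceptors, so these genes are used in the normal tissue as well as in the hypoxic one.

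Values are reads after division by 1 size factor per mouse (normalized reads), and fold changes are on the log2(normalized reads + 1) scale. Recovered totals were 17029536 to 33593428 reads per mouse. The 8 rod markers summed to at least 1001800.0 normalized reads in every mouse, and none of these markers was at 0 in any group. Some mice stood apart over the 39 genes. OIR p17 mouse S8 was the highest of its group for 22 genes and S4 the lowest for 18. Among OIR p14 mice, S1 was the highest for 18 genes and S6 the lowest for 21. In the controls, mouse S1 was the lowest for 21 genes at p14 and for 24 at p17. Mouse S8 also had the highest sums of rod, cone and Müller glia markers of its group, and the part of cell composition in these ranks was not tested. Summed lens markers exceeded 10000 normalized reads in 6 mice (4 OIR p17, 1 nOIR p17 and 1 nOIR p14). Counts of genes higher in OIR than in nOIR retina and the medians of the 39 genes are also given without them.

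At p14, 14 of the 39 genes were higher and 1 (Slc16a1) was lower in OIR than in nOIR retina at a limma adjusted p under 0.05. Over all genes tested, 3.18% were called higher and 2.91% lower. At p17, 24 of the 39 were higher and 3 (Slc16a1, Pfkm and Ldhb) lower, against 7.39% and 5.12% of all genes. The 14 genes higher at p14 were all among the 24 at p17, and 10 more passed only in the p17 comparison (Hk1, Pfkl, Pgk1, Pgam1, Eno1, Ldha, Bnip3l, Kdm3a, P4ha1 and Ppp1r3c). Of these, Bnip3l and Kdm3a were called higher at p14 as well by edgeR and by DESeq2, each of which called 16 genes there. Over all genes, edgeR called 865 higher at p14 and DESeq2 called 1123. The median log2 fold change of the 39 genes was 0.27 at p14 and 0.40 at p17, beside medians of 0.02 and -0.02 over all genes tested. Only Car9 had a log2 fold change above 2, the study's limit for a differentially expressed gene (DEG), which 0.744% of all genes passed upward at p14 and 1.9% at p17. Without the 6 mice rich in lens RNA, 15 genes were higher at p14, and 12 of the 24 remained called at p17, where 4 OIR mice were left. Over all 27220 genes of that fit, 754 were higher at p14 and 1407 at p17, down from 862 and 2005. The median log2 fold change was then 0.31 at p14 and 0.24 at p17, so that the order of the ages turned. Those 12 were Slc2a1, Slc2a3, Slc16a3, Pfkp, Pfkfb3, Pdk1, Bnip3, Higd1a, Car9, P4ha2, Ero1a and Gys1. Of the 12 lost, 7 were glycolytic enzymes (Hk1, Pfkl, Tpi1, Pgk1, Pgam1, Eno1 and Ldha). A lost call did not always mean a much smaller fold. The lowest p17 log2 fold change under any alternative was 0.433 for Kdm3a (main fit 0.483) and 0.312 for Ppp1r3c (0.358). For Pgam1 it was 0.161 (main fit 0.400) and for Pgk1 0.236 (0.464). With the log2 level of the lens gene Cryaa as a covariate in all 26 mice, 24 genes were again higher at p17, with 1917 over all genes.

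**Figure D1:**
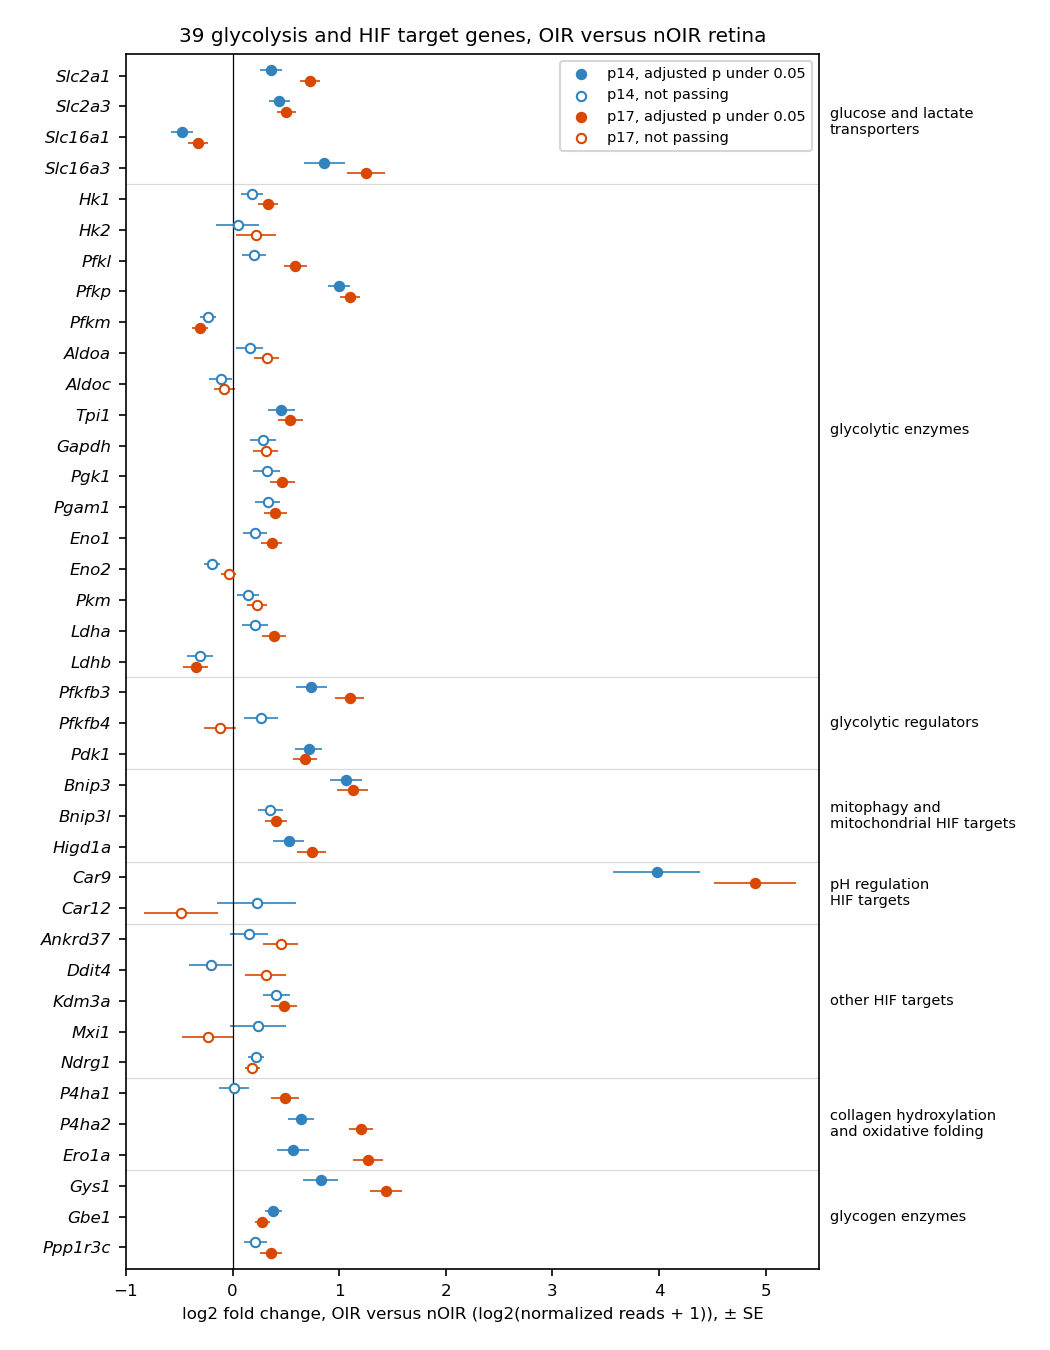
Log2 fold change of OIR against nOIR mice for the 39 genes at p14 (blue) and p17 (orange), with the standard error, grouped by role. Filled points had an adjusted p under 0.05. Car9 lies far to the right of all others at both ages, and Slc16a1, Pfkm and Ldhb are the filled points below 0 at p17.

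At p14, every OIR mouse lay above every control for 8 of the 39 genes (Slc16a3, Pfkp, Pdk1, Bnip3, Car9, P4ha2, Gys1 and Gbe1), as did 1.91% of all genes tested. At p17 this held for 15 (Slc2a1, Slc2a3, Slc16a3, Pfkl, Pfkp, Tpi1, Pfkfb3, Bnip3, Bnip3l, Higd1a, Car9, Ndrg1, P4ha2, Ero1a and Gys1), against 3.9% of all genes. None of the 39 had every OIR mouse below every control at either age, which 1.86% of all genes did at p14 and 1.98% at p17. In whole tissue, fewer cells of a type and less RNA per cell cannot be told apart, so each value is an average over the retina. Rod markers summed to 1001800.0 to 1367830.0 normalized reads in OIR p14 mice and to 1302640.0 to 1597280.0 in nOIR p14 mice, and 1 of the 8 was called lower. Müller glia markers were lower for 5 of 8 genes at p14 and 7 of 8 at p17, and bipolar cell markers for 2 of 8 at p14 and all 8 at p17. Lower calls were also found for 3 of 8 ganglion cell markers at p14 and 5 of 8 at p17, for 3 of 8 amacrine and horizontal cell markers at both ages, and for 2 of 8 rod markers at p17. Astrocyte markers were higher for 3 of 5 genes at p14 and 4 of 5 at p17, and summed to 1455 to 2285 normalized reads in nOIR p14, 3502 to 9910.3 in OIR p14, 1469 to 2119.8 in nOIR p17 and 3662 to 10886 in OIR p17 mice. These 5 did not move alike, with log2 fold changes of -0.61 to 3.23 (median 0.76) at p14 and -0.05 to 3.68 (median 0.82) at p17. They include Gfap, which the study names among its strongly upregulated genes at p14. Markers of pericytes and smooth muscle (8 of 8), endothelium (6 of 8), microglia (6 of 8) and red blood cells (5 of 5) were higher at p17. At p14, 2 of the pericyte and smooth muscle markers were higher and 3 lower, 1 endothelial marker was higher and 1 lower, 1 microglia marker was higher and 1 of 6 cone markers was lower. Their part in the levels of the 39 genes was not tested, except that with the rod markers as a covariate 22 genes were higher at p14 and 28 at p17. Calls over all 27137 genes rose in that fit as well, from 862 to 1330 higher at p14 and from 2005 to 2716 at p17.

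**Figure D2:**
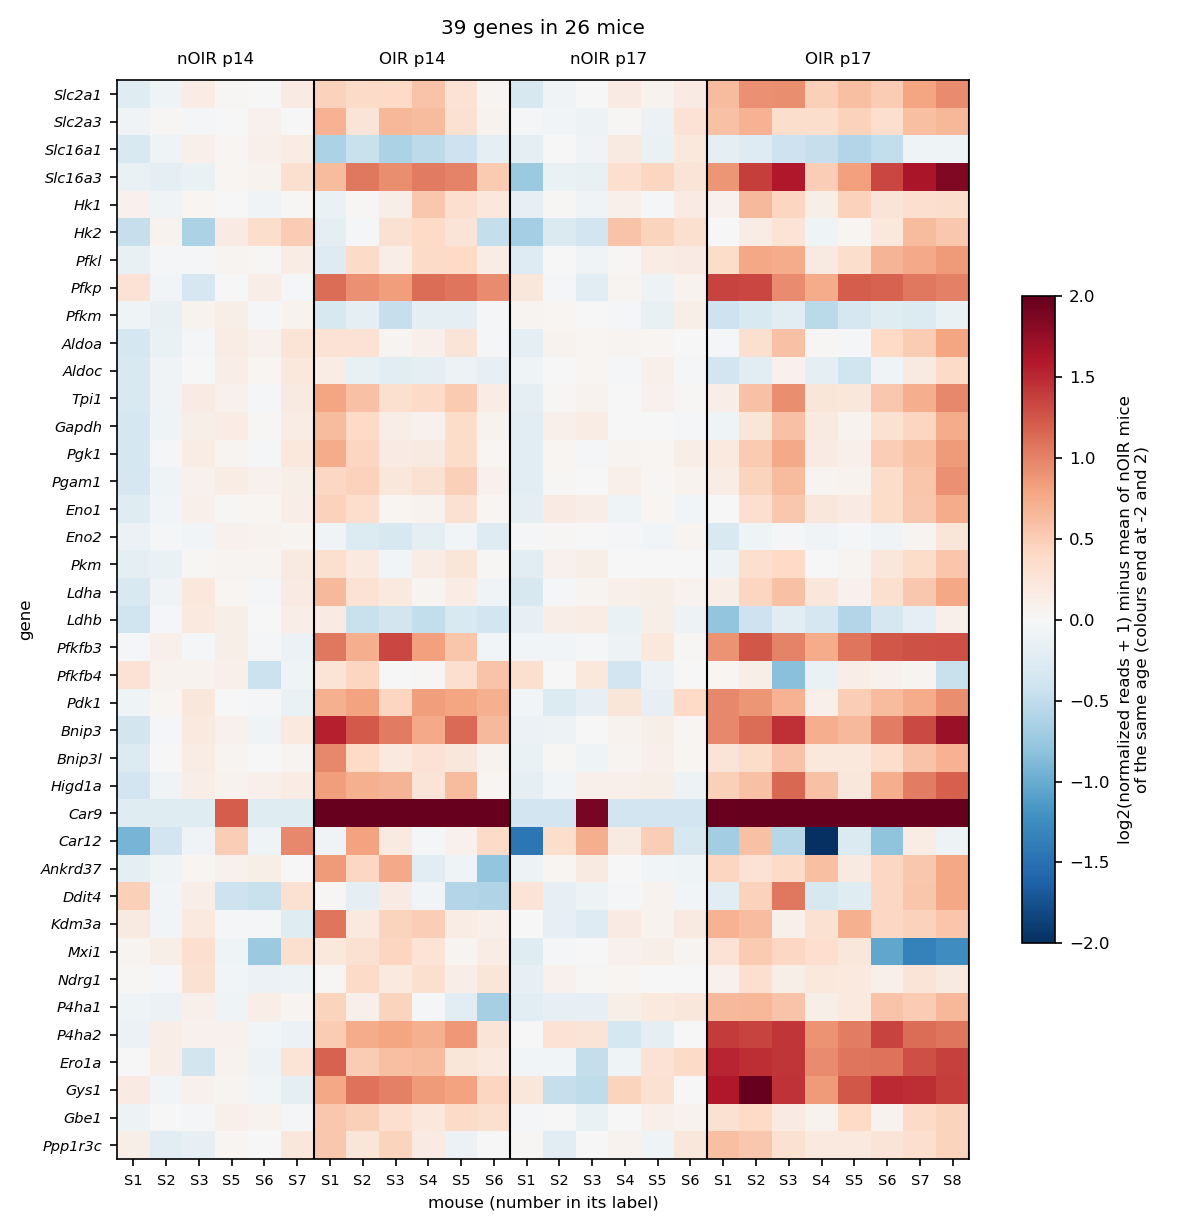
Log2 level of each of the 39 genes (rows) in each of the 26 mice (columns), minus the mean of the nOIR mice of the same age, so that red is higher and blue lower than control. The rows of Slc16a3, Pfkp, Bnip3, Car9, P4ha2, Ero1a and Gys1 are red in all OIR p17 mice, and Mxi1 is blue in 3 of them.

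Upstream sequences are shown for 5 of the genes that rose most, for Gys1, which rose without either motif, and for Slc16a1, which holds both motifs and was lower. They are the 250 bases before the RefSeq transcription start in build GRCm38.p6, written 5′ to 3′ on the strand of the gene. Capitals mark ACGTG or GCGTG on the printed strand, or CACGT or CACGC where the match lies on the other strand, and CACGTG counts once on each strand.
Car9, chr4:43506776-43507025, plus strand: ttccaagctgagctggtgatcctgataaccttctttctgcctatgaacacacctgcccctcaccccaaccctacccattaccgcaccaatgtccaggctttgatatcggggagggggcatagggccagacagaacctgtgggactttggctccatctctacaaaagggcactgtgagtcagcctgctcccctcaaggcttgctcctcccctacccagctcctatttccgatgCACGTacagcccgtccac
Slc16a3, chr11:120948817-120949066, plus strand: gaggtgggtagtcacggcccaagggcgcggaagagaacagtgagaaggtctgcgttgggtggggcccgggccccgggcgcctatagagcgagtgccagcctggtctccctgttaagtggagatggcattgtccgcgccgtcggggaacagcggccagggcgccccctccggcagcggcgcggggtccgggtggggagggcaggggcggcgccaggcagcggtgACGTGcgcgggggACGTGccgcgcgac
Bnip3, chr7:138909507-138909756, minus strand: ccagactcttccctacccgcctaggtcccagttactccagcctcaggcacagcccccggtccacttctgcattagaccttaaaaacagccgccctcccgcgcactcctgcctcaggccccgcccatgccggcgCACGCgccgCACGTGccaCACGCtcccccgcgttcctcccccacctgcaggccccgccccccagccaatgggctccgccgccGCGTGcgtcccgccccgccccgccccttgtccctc
P4ha2, chr11:54100674-54100923, plus strand: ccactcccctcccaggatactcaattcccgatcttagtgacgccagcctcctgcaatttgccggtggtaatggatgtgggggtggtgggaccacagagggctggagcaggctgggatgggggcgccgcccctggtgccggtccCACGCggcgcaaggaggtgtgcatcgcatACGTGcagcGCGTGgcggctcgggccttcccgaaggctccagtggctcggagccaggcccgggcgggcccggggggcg
Ero1a, chr14:45318573-45318822, minus strand: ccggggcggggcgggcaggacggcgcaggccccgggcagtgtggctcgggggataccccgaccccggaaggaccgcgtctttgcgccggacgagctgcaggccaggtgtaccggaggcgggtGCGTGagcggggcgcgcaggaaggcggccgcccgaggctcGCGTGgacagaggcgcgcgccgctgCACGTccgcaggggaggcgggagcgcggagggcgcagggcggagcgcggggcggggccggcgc
Gys1, chr7:45434589-45434838, plus strand: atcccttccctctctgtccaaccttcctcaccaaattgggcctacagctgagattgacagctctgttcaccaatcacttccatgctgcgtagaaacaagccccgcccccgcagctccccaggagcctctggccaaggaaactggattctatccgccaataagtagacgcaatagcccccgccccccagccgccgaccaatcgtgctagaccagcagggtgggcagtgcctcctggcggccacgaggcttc
Slc16a1, chr3:104638414-104638663, plus strand: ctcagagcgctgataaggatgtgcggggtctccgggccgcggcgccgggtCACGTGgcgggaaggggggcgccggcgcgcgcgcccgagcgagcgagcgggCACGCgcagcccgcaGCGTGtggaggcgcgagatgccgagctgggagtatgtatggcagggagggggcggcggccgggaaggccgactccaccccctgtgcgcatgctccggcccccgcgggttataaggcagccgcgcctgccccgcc

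Of the 39 genes, 36 had an upstream window in the table. Counting all listed start sites of a gene and windows of 300 bases (250 before and 50 after the start), 24 of the 36 held ACGTG (66.7%), 24 held GCGTG (66.7%) and 31 held at least one of them (86.1%). Among all 27025 genes with a window the shares were 21.8%, 35.2% and 46.7%, and among the 15205 with a window that were tested here they were 26.4%, 48.5% and 60.1%. With only the first listed window of each gene, the shares were 55.6%, 58.3% and 75% for the 36 genes. Over all 27025 genes they were then 19.7%, 32.5% and 43.8%. The 39 genes were chosen partly as HIF targets, so a high share was not an independent finding. The windows of the 36 genes were richer in G and C (median 63.9%) than those of the genes tested (58.7%), and the part of base composition in these shares was not tested. At least one motif was found in 19 of the 22 genes with a window that were higher at p17, in 9 of 11 that did not pass and in all 3 that were lower. A match is a string of letters and does not show binding.

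Among the transporters, Slc2a1 and Slc2a3 encode the glucose carriers GLUT1 and GLUT3. Slc2a1 ranged from 8523 to 11285 normalized reads (median 10089.6) in nOIR p14 mice and from 10502 to 15019.5 (median 13186) in OIR p14 mice. At p17 its range was 8437 to 11912 (median 10784) in controls and 14792 to 20460.4 (median 17365) in OIR mice. Only the OIR p14 mouse S6 fell within the control range at p14, and at p17 the groups were separate. Slc2a1 thus had a log2 fold change of 0.36 ± 0.10 (SE, limma, adjusted p = 0.0307) at p14 and 0.73 ± 0.10 (SE, limma, adjusted p = 1.71e-06) at p17. The p14 call was lost when any of 7 single mice was left out, with adjusted p up to 0.0845, and it was lost with Cryaa as a covariate. Slc2a3 was less abundant, with 2505 to 2781 normalized reads (median 2598) in nOIR p14 and 2753 to 4255 (median 3643) in OIR p14 mice. It had 2809 to 3700.2 (median 2933) in nOIR p17 and 3827 to 4921 (median 4356) in OIR p17 mice. All OIR p17 mice were above the highest control, and the log2 fold change was 0.44 ± 0.10 (SE, limma, adjusted p = 0.00528) at p14 and 0.51 ± 0.09 (SE, limma, adjusted p = 0.000197) at p17.

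The lactate carriers moved in opposite directions. Slc16a3 encodes MCT4, which exports lactate from glycolytic cells, and Slc16a1 encodes MCT1, which carries lactate either way. Slc16a3 had 1397 to 1977 normalized reads (median 1543) in nOIR p14 mice and 2269 to 3289 (median 3084) in OIR p14 mice. The p17 values were 1319 to 2988 (median 2348) in controls and 3123 to 7981 (median 5715) in OIR mice, of which S8 was the highest. Groups were separate at both ages, with a log2 fold change of 0.86 ± 0.19 (SE, limma, adjusted p = 0.00465) at p14 and 1.25 ± 0.18 (SE, limma, adjusted p = 6.49e-06) at p17. Slc16a1 had 10032 to 13754 normalized reads (median 12972) in nOIR p14 mice and 7944 to 10960.3 (median 8876) in OIR p14 mice. In p17 retina, it had 13266 to 17508 (median 14871) in controls and 10066 to 14241 (median 12076) in OIR mice. The groups overlapped at both ages, and the log2 fold change was -0.47 ± 0.10 (SE, limma, adjusted p = 0.00318) at p14 and -0.32 ± 0.10 (SE, limma, adjusted p = 0.0203) at p17. Its p17 call was lost without nOIR p17 mouse S4 or S6 (adjusted p from 0.0641 to 0.0683), with each mouse rescaled to the same total (0.0549), with quantile normalization (0.104) and with the rod markers as a covariate (0.0728).

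Of the 16 glycolytic enzymes, 2 were higher at p14 (Pfkp and Tpi1), and 8 were higher and 2 lower at p17. The p14 count depended on the setting. Quantile normalization added Eno1, Ldha, Aldoa and Pkm, and the rod covariate added these 4 and Gapdh, Pgam1 and Pgk1. Phosphofructokinase, the main control point of glycolysis, is built from the liver (Pfkl), platelet (Pfkp) and muscle (Pfkm) subunits, which differed in direction. Pfkp had 11771 to 18092 normalized reads (median 14653) in nOIR p14 mice and 26380.3 to 32258 (median 29799) in OIR p14 mice. Its p17 values were 16545 to 22383 (median 19128) in controls and 32035 to 48488 (median 41445) in OIR mice. The OIR mice were separate from the controls at both ages, about 2.00-fold higher at p14 and 2.15-fold higher at p17. The log2 fold change was 1.00 ± 0.10 (SE, limma, adjusted p = 1.46e-07) at p14 and 1.10 ± 0.10 (SE, limma, adjusted p = 1.05e-09) at p17. Pfkl had 11511 to 14155 normalized reads (median 12798) in nOIR p14 and 10757 to 16966 (median 15430.2) in OIR p14 mice, where OIR mouse S1 lay below all controls. At p17 it had 13337 to 17804 (median 16049) in controls and 18043 to 28688 (median 26067) in OIR mice, with no overlap. The log2 fold change was 0.20 ± 0.12 (SE, limma, adjusted p = 0.411) at p14 and 0.59 ± 0.11 (SE, limma, adjusted p = 0.000203) at p17. Pfkm had 3984 to 4799 normalized reads (median 4483) in nOIR p14 and 3202 to 4346 (median 3856) in OIR p14 mice. In p17 mice it had 4972 to 5925 (median 5536) in controls and 3770.4 to 4993 (median 4500.0) in OIR mice, whose highest mouse just reached the control range. Its log2 fold change was -0.23 ± 0.08 (SE, limma, adjusted p = 0.0821) at p14 and -0.31 ± 0.07 (SE, limma, adjusted p = 0.00346) at p17, and 10.7% of its exon bases are shared with other genes.

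Tpi1, triosephosphate isomerase, had 18259.7 to 25419.6 normalized reads (median 22841) in nOIR p14 mice and 24928 to 38708 (median 30855) in OIR p14 mice. The p17 mice had 24841 to 30425 (median 29019.8) in controls and 31341 to 55363 (median 42153) in OIR mice. OIR mice were separate from the controls at p17 and overlapped with them at p14, with a log2 fold change of 0.46 ± 0.13 (SE, limma, adjusted p = 0.0282) at p14 and 0.54 ± 0.12 (SE, limma, adjusted p = 0.00182) at p17. The p14 call was lost without any of 6 single mice (adjusted p up to 0.0771). Besides Pfkl, 5 enzymes were called higher only in the p17 comparison. Their log2 fold changes at p17 were 0.34 for the hexokinase Hk1, 0.46 for the phosphoglycerate kinase Pgk1, 0.40 for the phosphoglycerate mutase Pgam1, 0.37 for the enolase Eno1 and 0.39 for the lactate dehydrogenase subunit Ldha. The lowest values under any alternative were 0.211, 0.236, 0.161, 0.217 and 0.203, in the same order. All 5 calls were lost without the 6 mice rich in lens RNA. Ldha was the most abundant per kb of these enzymes, with a median of 22412 normalized reads per kb of exon in nOIR p17 and 27814 in OIR p17 mice, and its call was lost without nOIR p17 mouse S1 (adjusted p = 0.0769). The p17 groups of these 5 genes overlapped.

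Ldhb, the other lactate dehydrogenase subunit, had 3939.6 to 5927 normalized reads (median 5399) in nOIR p14 mice and 3693 to 5819.6 (median 3991) in OIR p14 mice. Levels at p17 were 5303 to 6578 (median 6005) in controls and 3441 to 6361 (median 4705) in OIR mice. Groups overlapped at both ages, and the log2 fold change was -0.31 ± 0.12 (SE, limma, adjusted p = 0.171) at p14 and -0.35 ± 0.12 (SE, limma, adjusted p = 0.0479) at p17. Its p17 call stood at the threshold and was lost on leaving out any of 18 single mice, with adjusted p from 0.0515 to 0.108. It was also lost under 11 other alternatives, among them edgeR (adjusted p = 0.0641), DESeq2 (0.0504) and the rod covariate (0.272). At p17, 6 enzymes did not pass. Aldoa, Gapdh and Pkm had log2 fold changes of 0.32, 0.31 and 0.23 with adjusted p of 0.0722, 0.0756 and 0.125 by limma, and edgeR called Aldoa and Gapdh. Hk2, Aldoc and Eno2 had 0.22, -0.08 and -0.03, and the sign of Aldoc and of Eno2 turned under other scalings. Pseudogene copies of Ldha, Gapdh, Aldoa, Pgam1, Pgk1 and Ldhb had group medians of at most 25.5 normalized reads, but Eno1b, a near copy of Eno1, had 901 to 1079, so reads could be split between Eno1 and Eno1b.

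Hk2, the hexokinase isoform that HIF induces in many tissues, is named for its change with age rather than with OIR. It ranged from 793 to 1742 normalized reads (median 1342) in nOIR p14 mice and from 885 to 1630.3 (median 1340.4) in OIR p14 mice. The p17 ranges were 1739 to 4118 (median 2879) in controls and 2627 to 4305 (median 3142) in OIR mice. OIR and control mice overlapped at both ages, while p17 mice of each kind were mostly above p14 mice. The rise from p14 to p17 had a log2 fold change of 1.17 ± 0.21 (SE, limma, adjusted p = 0.00416) in nOIR and 1.35 ± 0.19 (SE, limma, adjusted p = 2.71e-05) in OIR retina. The OIR effect on Hk2 was 0.05 (95% interval -0.37 to 0.47) at p14 and 0.22 (-0.17 to 0.61) at p17 on the log2 scale.

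The regulators act on either side of the pathway. Pfkfb3 makes the sugar phosphate that activates phosphofructokinase, and Pdk1 inhibits pyruvate dehydrogenase and so keeps pyruvate out of mitochondria. Pfkfb3 had 592 to 698 normalized reads (median 628) in nOIR p14 mice and 615 to 1623 (median 1101) in OIR p14 mice, of which only S6 lay within the control range. At p17 it had 710.2 to 881 (median 739) in controls and 1279 to 1871 (median 1700.1) in OIR mice, with no overlap. Pfkfb3 had a log2 fold change of 0.74 ± 0.15 (SE, limma, adjusted p = 0.00133) at p14 and 1.10 ± 0.14 (SE, limma, adjusted p = 5.85e-07) at p17. Pdk1 had 1696 to 2163 normalized reads (median 1826) in nOIR p14 and 2506 to 3296 (median 3121) in OIR p14 mice, with no overlap. Its p17 values were 1834 to 2918 (median 2058) in controls and 2378 to 4297 (median 3645) in OIR mice, where OIR mouse S4 lay within the control range. The log2 fold change was 0.71 ± 0.12 (SE, limma, adjusted p = 0.000319) at p14 and 0.68 ± 0.12 (SE, limma, adjusted p = 7.63e-05) at p17. Pfkfb4, the related bifunctional enzyme, did not pass at either age (0.27 and -0.12, adjusted p = 0.43 and 0.713 by limma), and its means were 300.0 ± 50.7 (SD, n = 6) in nOIR p17 and 279 ± 57.6 (n = 8) in OIR p17 mice.

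**Figure D3:**
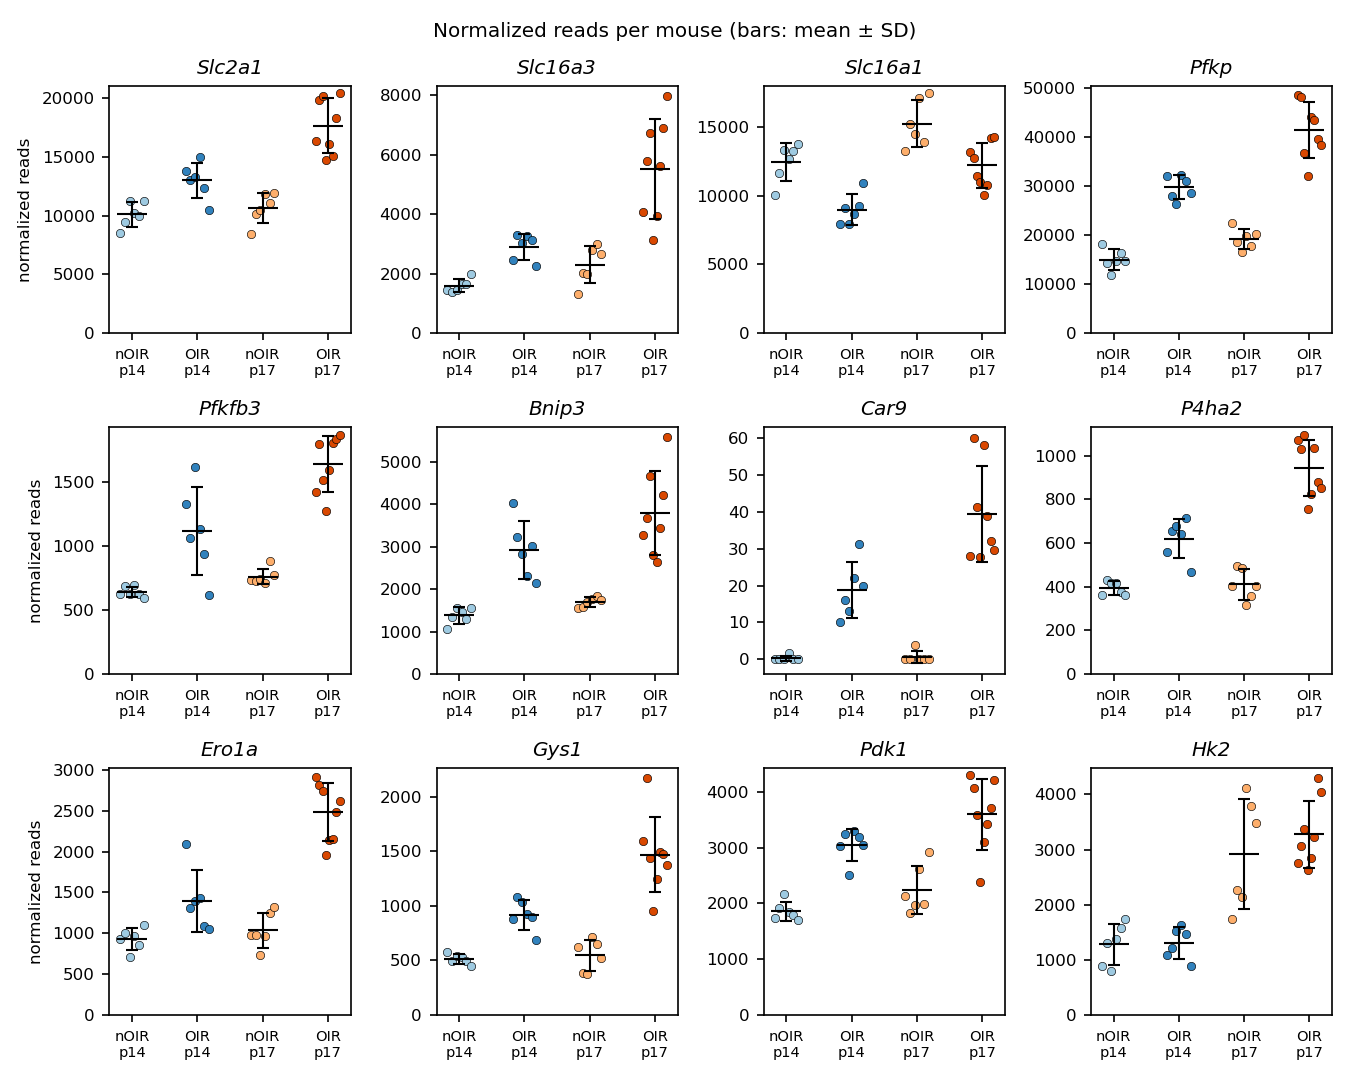
Normalized reads of 12 of the 39 genes in each mouse (points) of the 4 groups, with the mean and SD as bars and linear axes. OIR p17 mice lie above nOIR p17 mice without overlap for Slc2a1, Slc16a3, Pfkp, Pfkfb3, Bnip3, Car9, P4ha2, Ero1a and Gys1, while Slc16a1 lies lower in OIR and Hk2 differs by age.

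The mitochondrial targets of HIF include Bnip3 and Bnip3l, receptors that mark mitochondria for autophagy, and Higd1a, a small protein of the inner membrane. Bnip3 had 1065 to 1566 normalized reads (median 1395) in nOIR p14 and 2139.8 to 4037 (median 2911) in OIR p14 mice. At p17 it had 1548 to 1833 (median 1713) in controls and 2648 to 5588 (median 3563) in OIR mice, the highest being S8. Groups were separate at both ages, 2.09-fold apart at p14 and 2.18-fold at p17, with a log2 fold change of 1.06 ± 0.15 (SE, limma, adjusted p = 2.44e-05) and 1.12 ± 0.14 (SE, limma, adjusted p = 7.83e-07). Higd1a had 2766 to 3977 normalized reads (median 3816) in nOIR p14 and 3678 to 6433 (median 5667) in OIR p14 mice, which overlapped through OIR mouse S6. The p17 ranges, 3218 to 3942 (median 3706) in controls and 4228 to 8331 (median 5713) in OIR mice, were separate. Its log2 fold change was 0.53 ± 0.15 (SE, limma, adjusted p = 0.0259) at p14, a call lost without any of 6 single mice (adjusted p up to 0.0725), and 0.74 ± 0.14 (SE, limma, adjusted p = 0.00021) at p17. Bnip3l changed less, with 0.36 ± 0.11 (SE, limma, adjusted p = 0.059) at p14 and 0.40 ± 0.11 (SE, limma, adjusted p = 0.0081) at p17. Other genes share 22.3% of the exon bases of Bnip3 and 22.5% of those of Higd1a, as well as 26.4% of those of Ankrd37 and 15.3% of those of Pkm. Reads of either strand were counted together, and the effect of these overlaps on the counts was not measured.

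Car9, a carbonic anhydrase at the cell surface that handles acid from glycolysis, was the gene with the largest fold change of the 39. It was listed at 0 in 5 of 6 nOIR p14 and 5 of 6 nOIR p17 mice, and at 1.75 and 3.84 normalized reads in the others (nOIR p14 S5 and nOIR p17 S3). OIR p14 mice had 10.2 to 31.4 (median 17.9) and OIR p17 mice 27.8 to 59.9 (median 35.4), so every OIR mouse was above every control. These are few reads: 116 in all OIR p14 mice against 2 in nOIR p14 mice, and 334 in OIR p17 against 4 in nOIR p17 mice. The ratio of read rates was 59.8 at p14 (95% exact interval for counting error only, 16.2 to 499.7) and 59.8 at p17 (23.2 to 220.9). On the log2(normalized reads + 1) scale, where the pseudocount lowers the fold of rare genes, the change was 3.98 ± 0.41 (SE, limma, adjusted p = 1.34e-07) at p14 and 4.90 ± 0.38 (SE, limma, adjusted p = 1.04e-10) at p17. Both control mice with reads were among the 6 with high lens sums. The second carbonic anhydrase, Car12, had means of 113 ± 47.2 (SD, n = 6) in nOIR p17 and 81.9 ± 39.7 (n = 8) in OIR p17 mice and did not pass (log2 fold change -0.49, 95% interval -1.20 to 0.22).

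Among 5 further HIF targets, 1 passed, the histone demethylase Kdm3a at p17 (0.48 ± 0.12 SE, limma adjusted p = 0.00597). Ndrg1, a stress-response gene, had 8271 to 9772 (median 9375) normalized reads in nOIR p17 and 9778 to 11706 (median 10559) in OIR p17 mice, which did not overlap, but the log2 fold change was 0.18 ± 0.07 (SE, limma, adjusted p = 0.093). Ndrg1 was called with each mouse rescaled to the same total and with quantile normalization (limma, adjusted p = 0.00704 for the latter). Ankrd37 had a log2 fold change of 0.45 ± 0.16 (SE, limma, adjusted p = 0.0727) at p17 and was called by DESeq2 (adjusted p = 0.0453), when rescaled (0.0389) and with the rod covariate (0.0183), and Ddit4, an inhibitor of mTORC1 signaling, had 0.31 ± 0.19 (SE, limma, adjusted p = 0.361). Mxi1, an antagonist of Myc, split the OIR p17 mice. Mice S6, S7 and S8 had 1940, 1552 and 1684 normalized reads, and the other 5 had 4619 to 5703, on both sides of the nOIR p17 range of 3362 to 4295. A control, nOIR p14 mouse S6, was also low at 2104, against a median of 3722 in its group. The test across groups gave -0.23 ± 0.24 (SE, limma, adjusted p = 0.652) at p17, with the largest standard error of the 5.

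P4ha1 and P4ha2 encode catalytic subunits of the enzyme that hydroxylates proline in collagen, and Ero1a encodes an oxidase that forms disulfide bonds in the endoplasmic reticulum. P4ha2 had 360.0 to 429.7 normalized reads (median 396) in nOIR p14 and 469 to 713 (median 649) in OIR p14 mice. At p17 it had 318 to 493 (median 402) in controls and 755 to 1092 (median 955) in OIR mice. Groups were separate at both ages, 2.30-fold apart at p17, with a log2 fold change of 0.64 ± 0.12 (SE, limma, adjusted p = 0.000851) and 1.20 ± 0.11 (SE, limma, adjusted p = 4.21e-09). P4ha1 did not pass at p14 (0.02 ± 0.14 SE, limma adjusted p = 0.977) and rose at p17 (0.49 ± 0.13 SE, limma adjusted p = 0.0104). Ero1a had 711 to 1107 normalized reads (median 945) in nOIR p14 and 1055 to 2094 (median 1352) in OIR p14 mice, where OIR mice S5 and S6 lay within the control range. Its p17 values were 731 to 1321 (median 975) in controls and 1954 to 2912 (median 2555) in OIR mice, with no overlap and a 2.42-fold difference. The log2 fold change was 0.56 ± 0.15 (SE, limma, adjusted p = 0.0198) at p14 and 1.27 ± 0.14 (SE, limma, adjusted p = 7.01e-08) at p17, and the p14 call was lost without nOIR p14 mouse S3 or OIR p14 mouse S1 (adjusted p = 0.0616 to 0.0632). Markers of pericytes and endothelium, cells that make collagen, rose at p17 as given above, and their part in these changes was not tested.

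Of the 3 glycogen genes among the 39, 2 were higher at p14 and all 3 at p17. Gys1, glycogen synthase, had the largest change after Car9 at p17. It had 445 to 574 normalized reads (median 514) in nOIR p14 and 692 to 1084 (median 909.7) in OIR p14 mice. The p17 values were 372 to 718 (median 573) in controls and 958 to 2174 (median 1459) in OIR mice, of which S2 was the highest and S4 the lowest. Groups were separate at both ages, with a log2 fold change of 0.83 ± 0.16 (SE, limma, adjusted p = 0.00124) at p14 and 1.44 ± 0.15 (SE, limma, adjusted p = 2.92e-08) at p17, the latter 2.72-fold. Gbe1, the glycogen branching enzyme, had means of 1674 ± 86.2 (SD, n = 6) in nOIR p14 and 2183 ± 179 (n = 6) in OIR p14 mice, with a log2 fold change of 0.38 ± 0.08 (SE, limma, adjusted p = 0.00217) at p14 and 0.28 ± 0.07 (SE, limma, adjusted p = 0.00874) at p17. Ppp1r3c, which targets a phosphatase to glycogen, rose at p17 (0.36 ± 0.10 SE, limma adjusted p = 0.0177), a call lost without nOIR p17 mouse S2 (adjusted p = 0.0619).

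The share of 1 gene in its family was compared for 7 families, and 4 of the shares differed at both ages. Reads per kb of exon were used to compare genes, with exon lengths from GENCODE M21. The authors counted on the M28 annotation, and the difference in exon lengths was not measured. The share of Pfkp among the 3 phosphofructokinase genes was 25.5% ± 3.43 (SD, n = 6) in nOIR p14 and 39.9% ± 3.83 (n = 6) in OIR p14 mice. At p17 it was 26.1% ± 2.62 (n = 6) and 38.4% ± 4.43 (n = 8). Slc16a3 made up 9.65% ± 0.951 of the 2 lactate carriers in nOIR p14 and 21.4% ± 3.53 in OIR p14 mice, and 11.1% ± 2.51 and 26.9% ± 5.12 at p17. The share of Ldhb in Ldha and Ldhb was 13.3% ± 0.526 in nOIR p14 and 9.7% ± 0.838 in OIR p14 mice, and 15.1% ± 1.46 and 9.63% ± 0.705 at p17. Eno2, the neuronal enolase, made up 30.8% ± 1.47 of Eno1 and Eno2 in nOIR p14 and 25.2% ± 1.91 in OIR p14 mice, and 31.6% ± 2 and 26% ± 1.69 at p17. For these 4 shares, groups did not overlap at either age, and a two-sided exact permutation test gave its smallest possible p, 0.00216 at p14 and 0.000666 at p17 (Benjamini-Hochberg adjusted 0.00337 and 0.00186 over 14 tests). Pfkfb4 made up 37.8% ± 4.53 of Pfkfb3 and Pfkfb4 in nOIR p17 and 20.9% ± 4 in OIR p17 mice (exact permutation, adjusted p = 0.00186) but overlapped at p14 (exact permutation, adjusted p = 0.187). The share of Slc2a3 in Slc2a1 and Slc2a3 differed by -1.56 percentage points at p17 (exact permutation, adjusted p = 0.0289), and that of Hk2 in Hk1 and Hk2 by -1.07 points (adjusted p = 0.474, by the same exact test). At p14 neither of these shares passed (adjusted p = 0.466 for each, exact permutation). These families were chosen after the values were seen.

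**Figure D4:**
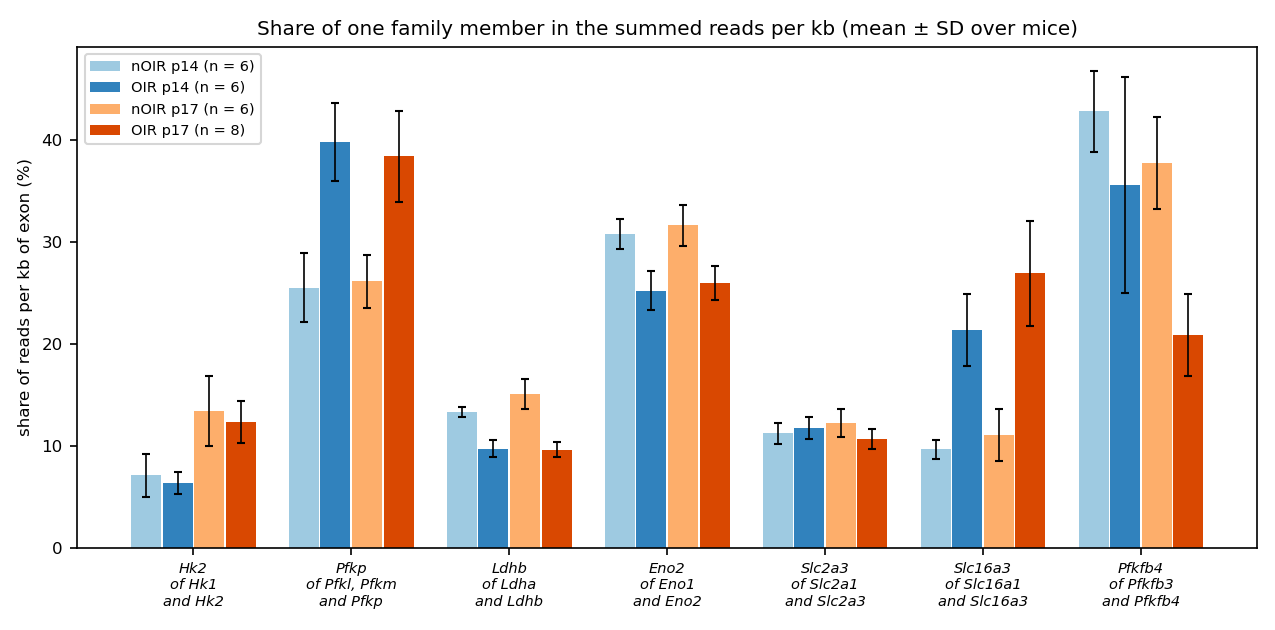
Share of 1 gene in the summed normalized reads per kb of exon of its family, as mean and SD over the mice of the 4 groups (axis in percent from 0). Pfkp and Slc16a3 take a larger share in OIR than in nOIR mice of the same age, and Ldhb and Eno2 a smaller one.

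The effect of OIR was then compared between p17 and p14. By limma, 0 of the 39 genes differed at an adjusted p under 0.05, and 6 did at an unadjusted p under 0.05, all larger at p17 (Slc2a1, Pfkl, P4ha1, P4ha2, Ero1a and Gys1). Over all genes tested, 1.43% were called larger and 0.147% smaller at p17 after adjustment, and 6.31% and 4.35% were at an unadjusted p under 0.05. edgeR called 0 of the 39 larger at p17 and 380 of all 27137 genes. DESeq2 called 1 of the 39, P4ha2, and 597 of all genes. The smallest adjusted p by limma were 0.0845 for Ero1a (difference 0.71 ± 0.21, SE) and 0.101 for P4ha2 (0.56 ± 0.17). The log2 fold change was greater at p17 for 31 of the 39 genes, and for 12 of the 14 called at both ages. The median difference was 0.15 for the 39 genes and -0.02 over all genes tested. Without the 6 mice rich in lens RNA, the log2 fold change was greater at p17 for 17 of the 39. For Bnip3 the difference between ages was 0.06 (95% interval -0.36 to 0.49) and for Pdk1 -0.03 (-0.38 to 0.31).

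In controls, the median log2 fold change of the 39 genes from p14 to p17 was 0.20, and 36 of the 39, among them 15 of the 16 glycolytic enzymes, were above 0. The median over all genes tested was -0.005, and genes measured in the same mice are not independent. Leaving out the mice rich in lens RNA, the median of the 39 was again 0.20, and 34 of them were above 0. From p14 to p17, Hk2 was higher and Ndrg1 lower in nOIR retina (-0.43 ± 0.08 SE, limma adjusted p = 0.00528), and no other of the 39 passed, with 0.158% of all genes called higher and 0.158% lower. DESeq2 called 3 of the 39 higher, and 109 of all 27137 genes. In OIR retina, 17 genes were higher at p17 than at p14 and 1 (Ndrg1, -0.46 ± 0.07 (SE, limma, adjusted p = 7.62e-05)) was lower, against 4.11% and 1.81% of all genes. Without the 6 mice rich in lens RNA, 6 were higher, while calls over all genes fell from 1114 to 458. The median log2 fold change of the 39 genes in OIR retina fell from 0.355 to 0.174, and those above 0 from 35 to 30. Slc16a1, lower in OIR than in control at both ages, was among those that rose with age (0.44 ± 0.10 SE, limma adjusted p = 0.00336). In OIR retina, 7 of 8 endothelial, 6 of 8 pericyte and smooth muscle, and 4 of 8 microglia markers were also higher at p17. All 5 red blood cell, 3 of 8 rod and 3 of 6 cone markers were higher as well. So were 1 of 8 Müller glia and 1 of 5 astrocyte markers, while 5 of 8 bipolar cell markers were lower. In nOIR, 2 of 6 cone markers were higher and 1 of 8 microglia markers was lower. Their part in these changes was not tested, apart from the rod covariate given below.

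Other genes of the same pathways are set beside the shares over all genes, 3.18% higher and 2.91% lower at p14, and 7.39% higher and 5.12% lower at p17. The lists were chosen with earlier results of these data known, so a high share in them is descriptive only. Of 34 other HIF-induced genes, 14 were higher at p14, and 23 were higher and 1 lower at p17, with a median log2 fold change of 0.41 and 0.95. The 4 with the smallest adjusted p at p17 were Ndufa4l2, a mitochondrial protein (4.79 ± 0.16 SE, limma adjusted p = 1.45e-18), the vasodilator peptide Adm (5.52 ± 0.24 SE, limma adjusted p = 6.72e-16), Anxa2 (2.54 ± 0.17 SE, limma adjusted p = 4.36e-12) and the HIF prolyl hydroxylase Egln3 (3.32 ± 0.24 SE, limma adjusted p = 3.28e-11). Of 25 other glycolysis genes, 2 were higher at p14 and 6 higher and 1 lower at p17, with medians of 0.01 and 0.07. Among the higher ones were the glucose phosphate isomerase Gpi1 (0.50 ± 0.07 SE, limma adjusted p = 1.33e-05), the lactate carrier partner Bsg (0.58 ± 0.11 SE, limma adjusted p = 0.000471) and the hexokinase Hk3 (2.25 ± 0.58 SE, limma adjusted p = 0.0078). Hk3 had few reads, 0 to 31.9 normalized reads in nOIR p17 and 3.97 to 63.5 in OIR p17 mice, and its groups overlapped. Of 20 other glycogen genes, 2 were higher and 2 lower at p14, and 3 were higher and 3 lower at p17. Among these, the phosphoglucomutases Pgm1 (0.57 ± 0.08 SE, limma adjusted p = 2.04e-06) and Pgm2 (0.93 ± 0.13 SE, limma adjusted p = 6.1e-06) and the phosphatase subunit Ppp1r3b (2.03 ± 0.42 SE, limma adjusted p = 0.000763) rose, and the glycogen phosphorylase Pygl fell (-0.69 ± 0.12 SE, limma adjusted p = 9.31e-05).

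Genes of pyruvate oxidation were mostly below 0. Of 26 genes of pyruvate dehydrogenase and the citric acid cycle, 1 was higher at p14 and 5 were lower at p17 (5.12% of all genes were lower there). Their median log2 fold changes were -0.10 and -0.13, beside 0.02 and -0.02 over all genes tested. The log2 fold change was below 0 for 24 of the 26 at p14 and for 23 at p17. The lower ones included Pdp1, the phosphatase that activates pyruvate dehydrogenase (-0.68 ± 0.14 SE, limma adjusted p = 0.000695), its subunits Dlat (-0.27 ± 0.08 SE, limma adjusted p = 0.0236) and Pdhb (-0.24 ± 0.07 SE, limma adjusted p = 0.0239), and the dehydrogenase Idh3a (-0.27 ± 0.09 SE, limma adjusted p = 0.0313). Of 7 genes of the pentose phosphate pathway, 1 was lower at p14. At p17, 2 of them were lower, Tkt (-0.34 ± 0.08 SE, limma adjusted p = 0.00329) and G6pdx (-0.19 ± 0.06 SE, limma adjusted p = 0.042). The difference between these lists and the 39 genes was not tested.

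**Figure D5:**
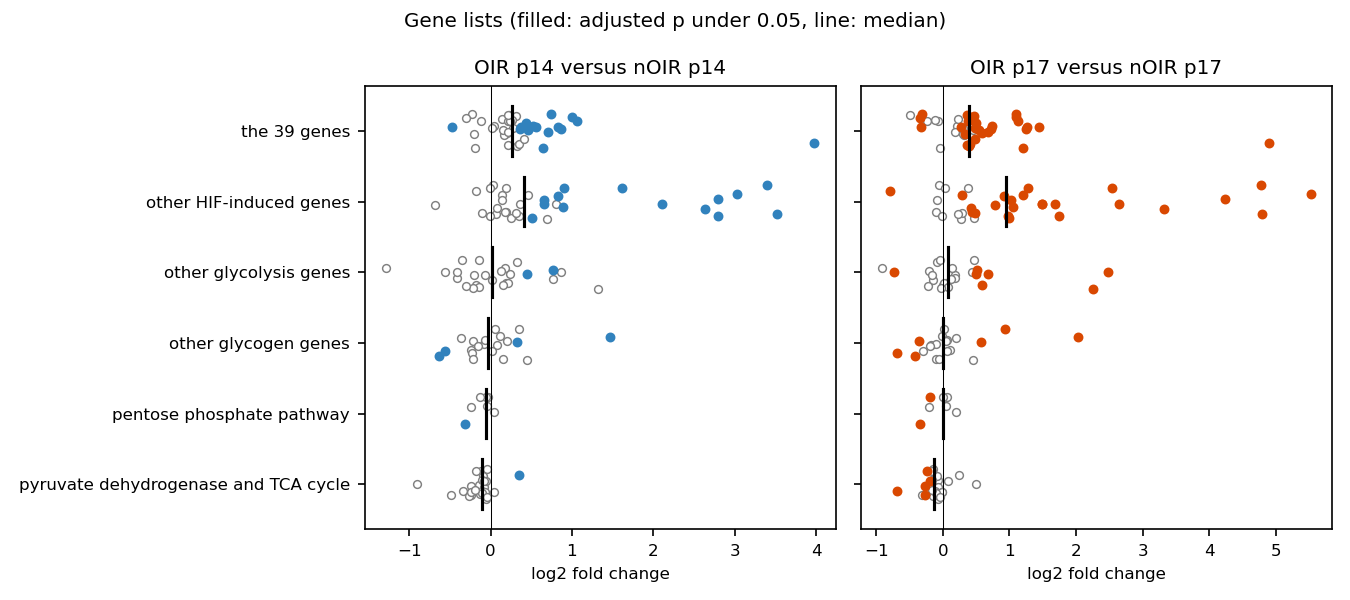
Log2 fold change of OIR against nOIR at p14 (left) and p17 (right) for the 39 genes and for 5 lists of related genes, each point a gene, filled where the adjusted p was under 0.05, with a line at the median. The other HIF-induced genes reach the highest values (5.52 for Adm at p17), and the genes of pyruvate dehydrogenase and the citric acid cycle lie close to and mostly below 0.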

How the data were processed

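RNA was sequenced from whole retinas, 1 library per mouse (SMARTer v4 cDNA, Nextera XT libraries, single reads). Per the labels and the study's methods, the authors ran FastQC 0.73, mapped with STAR 2.7.8a, counted on GENCODE M28 genes with featureCounts 2.0.1 and normalized with DESeq2 1.34 in R 4.0.3. The deposited signal is reads divided by 1 size factor per mouse. The deposited table also holds the authors' group means, log2 fold changes and adjusted p-values, which were not used. Whole reads were recovered for 100% of the values (tolerance 0.001). PCR copies were not removed, so intervals from reads cover counting error only.

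The 39 genes and all lists were chosen with earlier results of these data known. A pseudocount of 1 was added, genes with a mean of at least 1 were kept, and limma 3.58.1 (eBayes with trend, R 4.3.3) took all 4 groups in a single model, leaving out nOIR p14 mouse S4, with Benjamini-Hochberg adjustment over 27137 genes and a threshold of 0.05. Litters could not be modelled, since the labels do not tie mice to them. Exact permutation tests used scipy 1.17.1. The lowest, median and highest mouse are given for genes called with a log2 fold change of at least 0.5, and for genes lower at p17, and of each other list up to 4 called genes with the smallest adjusted p at p17. One such gene is not reported here. Hk2, Ndrg1 and Mxi1 were singled out after their values were seen. Upstream windows came from RefSeq (GRCm38.p6). Alternatives were other pseudocounts, filters, scalings, covariates and sample sets, edgeR 4.0.16 and DESeq2 1.42.0 on recovered reads, and, chosen after seeing the data, leaving out mice with high lens reads. The limma fit was tested on simulated reads for the comparison of OIR p17 with nOIR p17, and the other steps were not.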

Additional observations from a re-analysis of the deposited data

Results flagged for a closer look

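In 14 of 156 gene-by-group sets of mice, the highest or lowest mouse stood apart from the rest by Dixon's criterion, where chance gives about 1 in 20 for independent, normally spread sets. The sets share the same mice, and the Car9 control sets were at 0 in all other mice, so the count does not measure an excess. OIR p14 mouse S1 was the highest in 5 of them, with 14691 normalized reads of Aldoc (next mouse 12358), 5819.6 of Ldhb (4193), 4799 of Bnip3l (3278), 5768 of Kdm3a (3881) and 2094 of Ero1a (1431). nOIR p17 mouse S1 was the lowest in 4 of them, with 74353 of Aldoa (84582), 66694 of Pkm (77176), 56747 of Ldha (69726) and 8271 of Ndrg1 (9247). nOIR p17 mouse S6 was the highest for Slc2a3 (3700.2, next 3079.98). OIR p14 mouse S3 was the lowest for Pdk1 (2506, next 3031). nOIR p14 mouse S3 was the highest for Ndrg1 (15292, next 12614). The nOIR p14 mouse S5 (1.75) and the nOIR p17 mouse S3 (3.84) were the control mice with reads of Car9, the others being at 0.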

How the results depend on the processing

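The 14 genes called higher at p14 numbered 11 to 16 when single mice were left out (11 without nOIR p14 S2 or OIR p14 S1), 18 with each mouse rescaled to the same total, 21 with quantile normalization, and 22 with the rod markers as a covariate, where the median rose to 0.46. Over all genes, the 862 higher at p14 became 1019 when rescaled, 767 with quantile normalization and 1330 with the rod covariate. The 1 lower at p14 became 2 with nOIR p14 mouse S4 included, with Cryaa as a covariate and with DESeq2, and 1 to 2 on leaving out mice. Lower calls over all genes went from 790 to 880 with S4 included, 850 with Cryaa and 963 with DESeq2. The 24 higher at p17 numbered 23 to 27 on leaving out mice, 29 when rescaled, 28 with quantile normalization and 12 without the 6 mice rich in lens RNA, chosen after seeing the data, where the median was 0.24 and 4 of 8 OIR p17 mice remained. Of all genes, the 2005 higher at p17 became 2406 when rescaled, 1899 with quantile normalization and 1407 without those 6 mice. The 3 lower at p17 became 1 with each mouse rescaled to the same total, with quantile normalization, with the rod covariate and at an adjusted p under 0.01, and 1 to 3 on leaving out mice (1 without nOIR p17 S4 or S6). Lower calls over all genes at p17 went from 1390 to 964 when rescaled, 1447 with quantile normalization and 2761 with the rod covariate. Between ages, the count of larger OIR effects was 1 with DESeq2 and 0 to 1 on leaving out mice. From p14 to p17 in nOIR, the 1 higher became 3 in a fit of the compared groups alone, with the rod covariate (median 0.12) and with DESeq2, and 2 with quantile normalization. Among all genes, the 43 higher became 114 for the compared groups, 126 with the rod covariate, 109 with DESeq2 and 32 with quantile normalization. In OIR, the 17 higher became 6 without the mice rich in lens RNA, and the 1 lower became 2 with quantile normalization and with DESeq2. Among all genes, the 1114 higher became 458, and the 491 lower became 537 with quantile normalization and 693 with DESeq2. The cause of these shifts was not tested.

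Signs turned only among genes that did not pass. At p14, Hk2 was -0.036 with Cryaa as a covariate, Aldoc 0.15 and Mxi1 -0.089 with the rod covariate, Car12 -0.002 with S4 included and P4ha1 -0.001 without the mice rich in lens RNA. At p17, Aldoc was 0.015 with quantile normalization and 0.12 with the rod covariate. Eno2 was 0.033 when rescaled, 0.061 with quantile normalization and 0.064 with the rod covariate. Without the mice rich in lens RNA, Hk2 was -0.036, Pfkfb4 0.074 and Ddit4 -0.11. Leaving out single mice gave -0.08 to 0.15 for Hk2 and -0.07 to 0.15 for P4ha1 at p14, and -0.075 to 0.003 for Eno2 at p17.

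Same-numbered mice did not deviate together (correlations of -0.108 to 0.161, median 0.0031, over 34 pairs, and 5 of 26 mice correlated best with their own number), so the numbers do not pair the mice. With a replicate block, 15 genes were higher at p14 and 19 at p17, 3 lower at p17, and 2 higher from p14 to p17 in nOIR. The same calls over all genes were 730, 1890, 1269 and 37, against 862, 2005, 1390 and 43 in the main fit.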
